A study of Mus musculus with 10 samples.

Results

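Members of the RAC and actin machinery that are used mainly by blood cells were followed over 5 stages of hematopoietic development in culture. The members were the 10 genes whose symbols equal Rac2, Vav1, Dock2, Arhgdib, Was, Nckap1l, Hcls1, Coro1a, Lcp1 and Inpp5d, among the 15686 genes of the deposited expression matrix and the 55487 genes of the count tables. The rule takes them by symbol, and the set was proposed with earlier results of these data known.

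RAC is a small GTPase that switches between an inactive and an active state, and in its active state it starts the growth of branched actin networks that push the cell membrane forward. Guanine nucleotide exchange factors such as VAV1 and DOCK2 load RAC with GTP, and the inhibitor encoded by Arhgdib keeps RAC and related GTPases in the cytosol. The WAVE and WASP proteins pass the signal on to the ARP2/3 complex, which nucleates actin, and coronin and plastin proteins bind the filaments. Most of these proteins exist as a form found in nearly all cells and a second form found chiefly in leukocytes, where it serves migration, adhesion and the response to antigen and bacteria.

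Nuclear RNA was sequenced from HM-1 mouse embryonic stem cells, a single gene-targeting line, and from cells that the same line formed in serum, with 2 libraries for each of 5 stages. ES were the undifferentiated stem cells, and HB were FLK1+ hemangioblast cells taken with magnetic beads from embryoid bodies grown for 3 days. HB cells were cultured further with VEGF and IL-6, and KIT+ cells were then sorted: HE1, hemogenic endothelium with TIE2 but no CD41, HE2, hemogenic endothelium with both, and HP, hematopoietic progenitors with CD41 but no TIE2. No stage carried a mutation that the others lacked, and all came from this line, so the values describe HM-1 cultures and not embryos.

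Library totals ran from 24920434 to 58782055 counts over genes, and a floor of 3 counts corresponded to between 0.0532 and 0.126 CPM (counts per 1000000 counts of the scaled library). Defining markers were read in each stage. The summed level of 6 ES cell markers was 2562 to 2625 CPM in ES, 439 to 455 in HB, 46.3 to 93.5 in HE1 and 9.82 to 12.5 in HP. The HE1 libraries differed in these markers, with Pou5f1 at 2.82 CPM in replicate 1 and 26.3 in replicate 2, and Nanog at 0.715 and 11.6. Transcripts of the sort antigens did not follow the gates strictly. Itga2b, which encodes CD41, was at 34.5 to 48.0 CPM in HB, 127 to 227 in HE1, 469 to 505 in HE2 and 367 to 400 in HP, and Tek, which encodes TIE2, was at 294 to 564 CPM in HE1, 159 to 285 in HE2 and 61.5 to 64.2 in HP. That of 5 mesoderm markers was 9.81 to 10.8 CPM in ES and 1428 to 1751 CPM in HB. The summed level of 6 endothelial markers was 1672 to 2861 CPM in HE1 and 421 to 470 CPM in HP, and that of 6 blood progenitor markers was 199 to 311 CPM in HE1 and 1192 to 1394 CPM in HP. The study describes the replicates of its stage expression values as biologically independent, and the labels do not say how the libraries of a stage were derived.

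Promoters of the members were read first, since the genes rose together later in the series. RefSeq windows of 300 bases, with 250 bases before the transcription start and 50 bases from it, were matched for 8 of the 10 genes (12 windows, GRCm38.p6). Rac2 and Nckap1l were not among them. The windows below are shown because they hold the letters GAGGAA, the core bound by the myeloid and lymphoid ETS factor PU.1, close to the start. Capitals mark the searched letters, each read on both strands. ETS factors in general were searched for by the core CGGAAG. PU.1, which prefers a purine-rich site, was searched for by GAGGAA. RUNX proteins were represented by the letters TGTGGT. Erythroid and megakaryocyte regulators of the GATA family were represented by AGATAA. The box bound by the basal machinery was searched for as TATAAA.
Vav1, chr17:57278850-57279149, plus strand: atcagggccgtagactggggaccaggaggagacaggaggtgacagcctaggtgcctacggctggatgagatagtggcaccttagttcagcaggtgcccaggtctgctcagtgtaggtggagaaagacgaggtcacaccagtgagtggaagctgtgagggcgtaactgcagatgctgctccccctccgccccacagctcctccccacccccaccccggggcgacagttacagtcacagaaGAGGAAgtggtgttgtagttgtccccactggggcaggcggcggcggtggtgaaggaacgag
Was, chrX:8090442-8090741, minus strand: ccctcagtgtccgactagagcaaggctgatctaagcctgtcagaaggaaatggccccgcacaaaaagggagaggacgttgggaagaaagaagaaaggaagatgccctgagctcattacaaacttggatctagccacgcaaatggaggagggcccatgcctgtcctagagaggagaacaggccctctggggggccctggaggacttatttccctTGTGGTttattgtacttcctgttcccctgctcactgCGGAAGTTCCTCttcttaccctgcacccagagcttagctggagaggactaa
Dock2, chr11:34783856-34784155, minus strand: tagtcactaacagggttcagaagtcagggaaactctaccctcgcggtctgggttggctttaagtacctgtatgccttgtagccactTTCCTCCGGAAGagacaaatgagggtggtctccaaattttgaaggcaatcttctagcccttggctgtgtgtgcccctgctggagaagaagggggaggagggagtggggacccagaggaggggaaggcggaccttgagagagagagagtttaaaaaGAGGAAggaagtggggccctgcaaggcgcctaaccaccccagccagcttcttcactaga
Inpp5d, chr1:87620062-87620361, plus strand: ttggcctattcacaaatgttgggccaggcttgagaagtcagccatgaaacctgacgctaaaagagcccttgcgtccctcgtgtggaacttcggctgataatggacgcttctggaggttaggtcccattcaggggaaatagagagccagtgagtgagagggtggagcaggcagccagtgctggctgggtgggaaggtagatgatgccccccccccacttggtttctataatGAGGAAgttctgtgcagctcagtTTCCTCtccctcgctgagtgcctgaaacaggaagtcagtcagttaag

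In Vav1 the letters GAGGAA began 11 bases before the start, and in Dock2 a copy began 9 bases before it. The Was window held them on the opposite strand, read as TTCCTC, from base 6 of the transcript, directly after the ETS core. Inpp5d carried a copy on each strand, at 20 bases before the start and at base 4. The PU.1-type letters were in 5 of the 12 windows (1 each in Arhgdib, Dock2, Inpp5d, Vav1 and Was), against 28.3% of all 32851 windows. The ETS core was in 4 of 12 (Arhgdib, Coro1a, Dock2 and Was) against 16.9%, and the RUNX letters were in 2 (Arhgdib and Was) against 16.8%. GATA letters stood in 1 of 12 (Arhgdib) against 11.2%, and TATA letters in 2 (Arhgdib and Hcls1) against 13.6%. With so few windows these shares are a description only, and a match of letters does not show that a factor binds.

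Levels of the members were lowest in ES, HB or HE1 and highest in HP or HE2. The stage with the highest mean was HP for 9 of the 10 genes, a pattern that 15.8% of the 22596 tested genes had, and HE2 for Inpp5d, as 10.1% of tested genes had. HE2 and HP stood next to each other at the top of that order for 9 genes and did not pass the test in any of them, while Nckap1l had ES between them. A gene is said to rise, to fall or to be called where the edgeR quasi-likelihood test gave an adjusted p under 0.05 (Benjamini-Hochberg, over all tested genes) with a change of at least 2-fold.

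**Figure D1:**
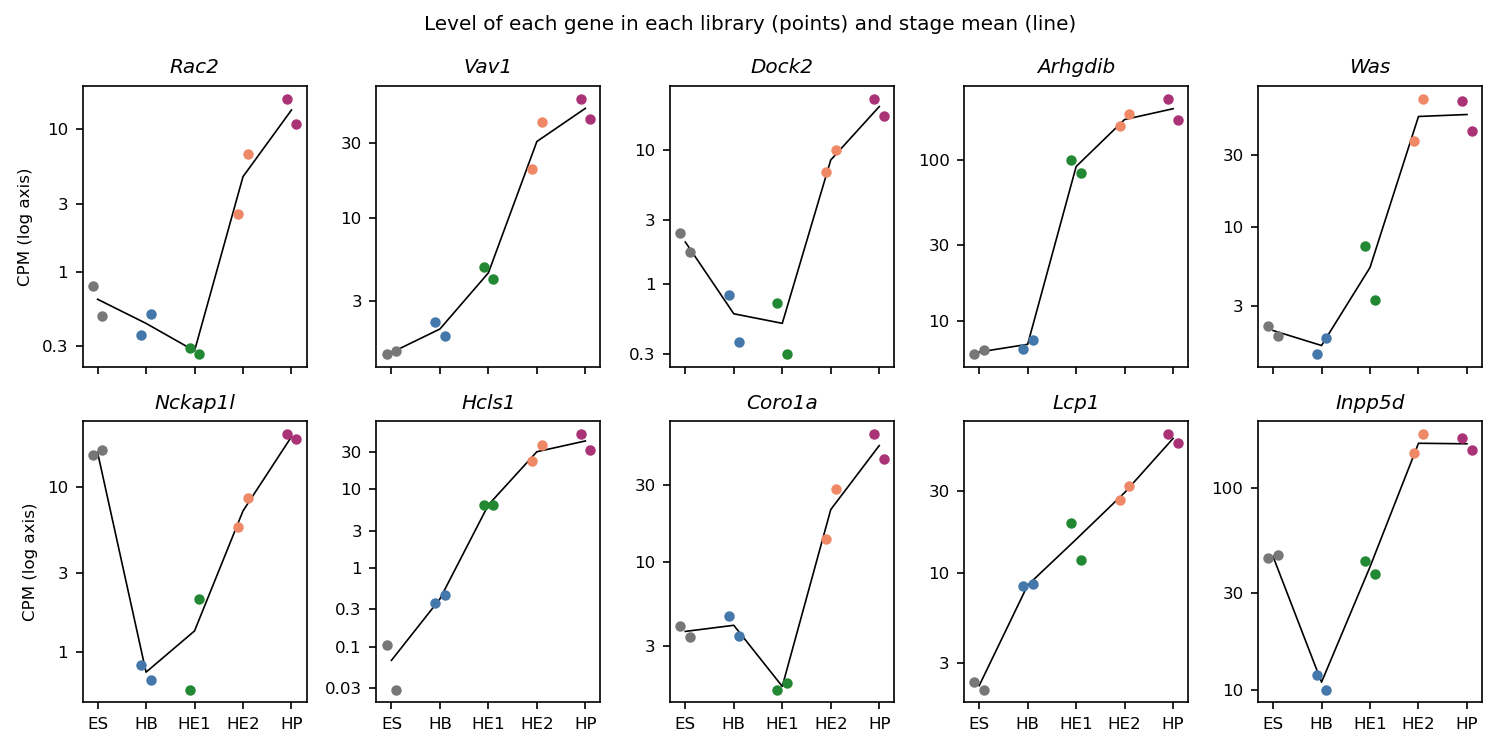
Level of each of the 10 genes in CPM (log axis, each panel with its own range) in the 2 libraries of each stage (points) and their mean (line). All 10 genes lie higher in both HE2 and both HP libraries than in both HE1 libraries, and Nckap1l and Inpp5d also have a high level in ES.

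Rac2 encodes the RAC GTPase of blood cells and lies on the minus strand of chromosome 15 from 78559167 to 78572783 (mm10). Its level was 0.798 and 0.488 CPM at ES, 0.364 and 0.507 at HB, 0.294 and 0.264 at HE1, 2.56 and 6.76 at HE2 and 16.4 and 11.0 at HP. The ES, HB and HE1 libraries thus all stayed below 1 CPM and those of the later stages did not overlap with them. The difference between HE2 and HE1 was 4.05 ± 0.57 on the log2 scale (SE, adjusted p = 0.00319). That between HP and HE1 was 5.60 ± 0.59 (adjusted p = 0.000237), the largest of the members, though within its SE of Dock2 (5.41 ± 0.50). Neither HB against ES (adjusted p = 0.439) nor HE1 against HB (adjusted p = 0.454) passed the test.

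Vav1, on chromosome 17 (plus strand, 57279100 to 57328031), encodes an exchange factor that tyrosine kinases switch on below antigen, cytokine and adhesion receptors. Its level was 1.37 and 1.43 CPM at ES, 2.18 and 1.77 at HB, 4.88 and 4.13 at HE1, 20.5 and 41.1 at HE2 and 57.6 and 42.6 at HP. Each later stage had a higher mean than the one before it. Vav1 rose from HB to HE1 by 1.19 ± 0.33 (adjusted p = 0.0211), and from HE1 to HE2 by 2.78 ± 0.32 (adjusted p = 0.00111). The call at the first of these steps was lost with limma-voom (adjusted p = 0.153), with the 4 libraries alone (adjusted p = 0.0557) and without HB replicate 1, HB replicate 2 or HE1 replicate 1 (adjusted p from 0.0688 to 0.156).

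Dock2, an exchange factor of the DOCK family that drives lymphocyte and neutrophil migration, spans chromosome 11 from 34226815 to 34783892 on the minus strand. It was measured at 2.38 and 1.72 CPM at ES, 0.827 and 0.366 at HB, 0.715 and 0.297 at HE1, 6.89 and 9.90 at HE2 and 24.0 and 18.0 at HP. Thus its low point was in HB and HE1, which overlapped. Dock2 fell by 1.80 ± 0.46 from ES to HB (adjusted p = 0.0102) and rose by 4.08 ± 0.49 from HE1 to HE2 (adjusted p = 0.00136). Without ES replicate 1 or HB replicate 2 the fall was not called (adjusted p = 0.0650 and 0.0968). An annotated gene on the opposite strand, 4930403D09Rik, overlaps its exons, but reads were counted by strand.

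Arhgdib encodes the blood-cell form of the inhibitor that holds RAC and related GTPases off the membrane. It lies on chromosome 6 (minus strand, 136923655 to 136941899), and its levels were 6.24 and 6.66 CPM at ES, 6.71 and 7.69 at HB, 100.0 and 83.0 at HE1, 164 and 195 at HE2 and 241 and 177 at HP. In HE1 it already stood at 43.8% of its HP mean, the highest such share of the 10 genes at that stage. Its rise from HB to HE1 was 3.67 ± 0.20 (adjusted p = 3.88e-06). From HE1 to HE2 the difference of 0.97 ± 0.18 (adjusted p = 0.0117) passed the test but not the 2-fold limit, and without HE1 replicate 2 or HE2 replicate 2 it did not pass the test (adjusted p = 0.0688 and 0.0829). It passed both limits in 6 of the 10 fits that left out a library.

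Was encodes WASP, the CDC42 effector that activates ARP2/3 in blood cells and is lost in Wiskott-Aldrich syndrome. The gene lies on chromosome X (minus strand, 8081453 to 8090498). Its levels were 2.2 and 1.89 CPM at ES, 1.42 and 1.83 at HB, 7.49 and 3.27 at HE1, 37.5 and 71.5 at HE2 and 68.6 and 43.7 at HP. HE2 and HP libraries overlapped in range, and the HE1 libraries stood well below both. Was rose by 1.71 ± 0.44 from HB to HE1 (adjusted p = 0.0151) and by 3.35 ± 0.42 from HE1 to HE2 (adjusted p = 0.00177). The first rise was not called with limma-voom (adjusted p = 0.133) or without HB replicate 1, HB replicate 2 or HE1 replicate 1 (adjusted p from 0.0661 to 0.125).

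Nckap1l, which encodes HEM1, the blood-cell subunit of the WAVE complex, lies on chromosome 15 (plus strand, 103453794 to 103498810). Its level was 15.6 and 16.6 CPM at ES, 0.827 and 0.676 at HB, 0.589 and 2.08 at HE1, 5.70 and 8.54 at HE2 and 20.8 and 19.3 at HP. Both ends of the series were high and the middle was low. Nckap1l fell by 4.42 ± 0.47 from ES to HB (adjusted p = 5.21e-05), rose by 2.38 ± 0.44 from HE1 to HE2 (adjusted p = 0.0116), and in HP differed from ES by 0.32 ± 0.39 (adjusted p = 0.525), which leaves room for a difference in either direction. The HE2 rise was not called with the 4 libraries alone (adjusted p = 0.0737) or without HE2 replicate 2 (adjusted p = 0.0591). HE1 replicate 2 held 3.53 times the level of HE1 replicate 1 and was also the HE1 library with more ES cell marker RNA, and the part of this in the value was not tested. Without HE1 replicate 2 the HE2 rise was 3.59 (adjusted p = 0.0059) and the difference of HP from HE1 was 5.08 in place of 3.87.

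Hcls1 encodes HS1, the blood-cell relative of cortactin that binds ARP2/3 and is phosphorylated below antigen receptors. Situated on chromosome 16 (plus strand, 36934983 to 36963212), it was nearly silent in ES, with 6 and 1 counts (0.106 and 0.0287 CPM). It was measured at 0.364 and 0.451 CPM at HB, 6.31 and 6.44 at HE1, 23.2 and 37.1 at HE2 and 50.5 and 32.2 at HP. No other member rose at each of the first 3 steps. The rises were 2.38 ± 0.61 from ES to HB (adjusted p = 0.00992), 3.95 ± 0.39 from HB to HE1 (adjusted p = 7.08e-05) and 2.24 ± 0.31 from HE1 to HE2 (adjusted p = 0.00278). The first, which starts from 7 counts in all, was not called with limma-voom (adjusted p = 0.112) or without HB replicate 2 (adjusted p = 0.0620).

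Coro1a encodes coronin 1A, an actin-binding protein that T cells need for survival and exit from the thymus. On chromosome 7 (minus strand, 126699773 to 126707787) its exons meet those of Bola2 on the opposite strand. It was measured at 3.97 and 3.39 CPM at ES, 4.60 and 3.44 at HB, 1.60 and 1.75 at HE1, 13.8 and 28.3 at HE2 and 62.0 and 43.3 at HP. The HE1 libraries were the lowest of all. Coro1a fell by 1.25 ± 0.36 from HB to HE1 (adjusted p = 0.0242) before it rose by 3.65 ± 0.37 to HE2 (adjusted p = 0.000643). That fall was not called with limma-voom (adjusted p = 0.166), with the 4 libraries alone (adjusted p = 0.0618) or without HB replicate 1 or either HE1 library (adjusted p from 0.0743 to 0.103).

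Lcp1 encodes L-plastin, which bundles actin filaments in leukocytes, and lies on chromosome 14 (plus strand, 75131101 to 75230842). Its levels were 2.32 and 2.09 CPM at ES, 8.40 and 8.59 at HB, 19.5 and 12.0 at HE1, 26.5 and 32.3 at HE2 and 64.4 and 57.2 at HP. No libraries of different stages overlapped, and the climb was spread over all steps. Lcp1 rose by 1.94 ± 0.24 from ES to HB (adjusted p = 0.000148). The later steps were 0.88 ± 0.23 to HE1 (adjusted p = 0.0149), 0.91 ± 0.23 to HE2 (adjusted p = 0.0312) and 1.05 ± 0.22 to HP (adjusted p = 0.139). The steps to HE1 and HE2 passed the test but not the 2-fold limit. The first passed both limits without HE1 replicate 2 (1.20), and the second without HE1 replicate 1 (1.32) or HE2 replicate 1 (1.06). The step to HE1 did not pass the test without HB replicate 1, HB replicate 2 or HE1 replicate 1 (adjusted p from 0.0932 to 0.114), nor did the step to HE2 with the 4 libraries alone or without HE1 replicate 2 or HE2 replicate 2 (adjusted p from 0.0944 to 0.221).

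Inpp5d, on chromosome 1 (plus strand, 87620312 to 87720507), encodes SHIP1, the phosphatase that removes the membrane lipid through which PI3 kinase recruits exchange factors such as VAV1. It was measured at 45.1 and 46.3 CPM at ES, 11.8 and 10.1 at HB, 43.6 and 37.6 at HE1, 147 and 184 at HE2 and 175 and 154 at HP. A dip in HB separated ES from HE1, which differed by -0.17 (adjusted p = 0.387). Inpp5d fell by 2.06 ± 0.17 from ES to HB (adjusted p = 9.14e-06), rose by 1.89 ± 0.17 to HE1 (adjusted p = 3.73e-05) and by 2.03 ± 0.16 to HE2 (adjusted p = 0.000265), and HP differed from HE2 by -0.01 ± 0.16 (adjusted p = 1). Counts were summed over all transcripts of the gene, so its isoforms were not told apart.

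The steps were then compared over the whole set, to show when the machinery changed. From ES to HB, 2 of the 10 members rose (Lcp1 and Hcls1), where 11.5% of all tested genes did, and 3 fell (Inpp5d, Dock2 and Nckap1l), where 17.3% did. The median change was -0.11 over the members and 0 over all tested genes. From HB to HE1, 5 rose (Vav1, Arhgdib, Was, Hcls1 and Inpp5d) against 12.7% of all genes, and 1 fell (Coro1a) against 8.19%. Without HB replicate 1 or HB replicate 2, 3 members rose, against 7.65% and 6.03% of all genes in those fits. Markers of several cell types moved at the same step. The summed level of 4 smooth muscle markers was 13.2 to 17.2 CPM in HB and 622 to 939 in HE1, although HE1 was sorted as KIT+ TIE2+. Endothelial markers were at 197 to 224 and 1672 to 2861 CPM, erythroid markers at 17.9 to 19.6 and 262 to 538, and megakaryocyte markers at 13.4 to 14.7 and 71.0 to 105. Their part in the members' changes was not tested. The median change at this step was 1.04 over the members and 0.04 over all genes.

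From HE1 to HE2, when CD41 appears, 8 of 10 members rose, against 3.26% of all tested genes, and 0 fell, against 5.39%. The rises ran from 2.03 (Inpp5d) to 4.08 (Dock2), and the 2 genes that were not called were Arhgdib and Lcp1. The median was 2.58 over the members and -0.08 over all genes. In all 10 genes both HE2 libraries lay above both HE1 libraries, as in 28.8% of tested genes. Between 7 and 10 members were called when a single library was left out, and the shares of all genes then ran from 1.33% (without HE2 replicate 2) to 5.61% (without HE1 replicate 1) higher and from 0.401% to 12% lower, in the same fits. Lineage markers moved at this step too, with summed megakaryocyte markers at 71.0 to 105 CPM in HE1 and 1118 to 1499 in HE2, erythroid markers at 262 to 538 and 1683 to 2184, and granulocyte markers at 3.04 to 7.19 and 63.1 to 151. Their part in the members' rise was not tested.

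From HE2 to HP, when TIE2 is lost, 0 members were called by edgeR, as were 0% of all tested genes in either direction. At an unadjusted p under 0.05, 670 genes were higher and 1113 lower in HP, and 6 members were among those higher (Lcp1, Coro1a, Nckap1l, Rac2, Dock2 and Vav1). Of all 10 members, 6 had both HP libraries above both HE2 libraries, as had 15.8% of tested genes. The differences of the 6 named genes ran from 0.70 ± 0.29 (Vav1) to 1.56 ± 0.45 (Rac2). The differences of Arhgdib (0.22 ± 0.18), Hcls1 (0.45 ± 0.29) and Was (0.04 ± 0.38) were smaller. With DESeq2, 4 members were called (Dock2, Nckap1l, Coro1a and Lcp1) among 107 genes higher in HP (0.474%). With limma-voom 1 was (Lcp1), among 35 (0.155%). Summed endothelial markers were at 922 to 1675 CPM in HE2 and 421 to 470 in HP, and erythroid markers at 1683 to 2184 and 2404 to 4688. Megakaryocyte (1118 to 1499 and 1187 to 1680) and granulocyte sums (63.1 to 151 and 113 to 252) overlapped. Their part in the members' differences was not tested.

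**Figure D2:**
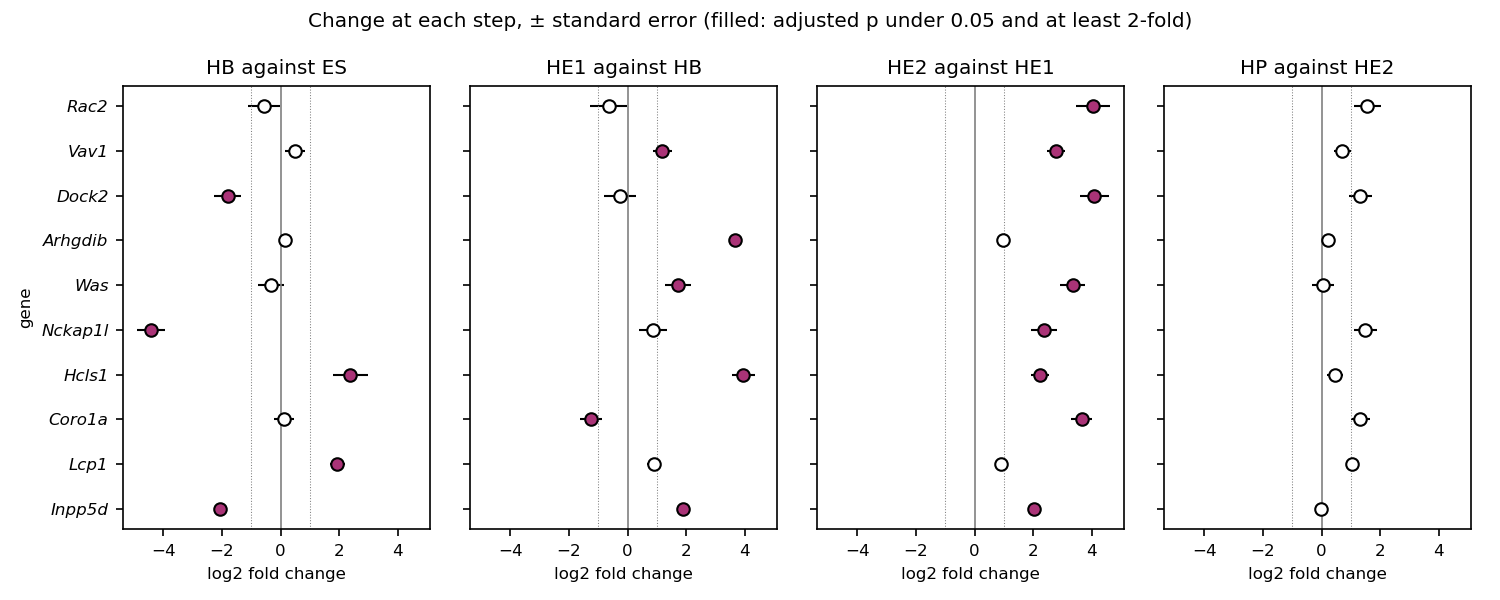
Log2 fold change of each gene at each of the 4 steps (points) with its standard error (bars), where filled points passed an adjusted p of 0.05 with a change of at least 2-fold and dotted lines mark 2-fold. Filled points are scattered to both sides at the first steps. From HE1 to HE2 all 10 points lie to the right of 0 and 8 are filled, and none is filled from HE2 to HP.

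HP was compared with HE1 to give the whole distance from CD41- endothelium to progenitors. This comparison shares the HE1 libraries with that of HE2 against HE1. All 10 members rose, against 5.35% of all tested genes, and 0 fell, against 11.2%. Without HP replicate 1 the change of Arhgdib was 0.97 (adjusted p = 0.0179), under 2-fold, and 9 members were called, while 3.16% of all genes rose and 4.66% fell in that fit. The changes ran from 1.19 ± 0.18 (Arhgdib, 2.29-fold) to 5.60 ± 0.59 (Rac2, 48.6-fold), with a median of 3.44 over the members and -0.02 over all genes. Dock2 stood at 5.41 ± 0.50 (42.4-fold) and Coro1a at 4.97 ± 0.38 (31.3-fold). The others were Nckap1l at 3.87, Vav1 at 3.48, Was at 3.40, Hcls1 at 2.70, Inpp5d at 2.02 and Lcp1 at 1.95, and the highest adjusted p of the 10 was 0.00135 (edgeR). A gain per cell and a larger share of cells that express a gene cannot be told apart in such bulk libraries.

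Libraries of the same stage differed in a like manner for all members late in the series. HE2 replicate 2 was higher than HE2 replicate 1 in all 10 genes, by 1.19 to 2.64 times (median 1.55), whereas 45.4% of all tested genes were higher in it. HP replicate 2 was lower than HP replicate 1 in all 10, with ratios from 0.637 to 0.930, whereas 45.2% of tested genes were higher in it. In HE2 the summed endothelial markers were 1675 CPM in replicate 1 and 922 in replicate 2, and the summed blood progenitor markers were 995 and 1365. Granulocyte markers in HE2 were 63.1 and 151. The erythroid markers, at 2184 and 1683, and the smooth muscle markers, at 651 and 406, were lower in HE2 replicate 2, unlike the members. In HP the summed erythroid markers were 4688 CPM in replicate 1 and 2404 in replicate 2. The granulocyte markers were 252 and 113 there, and the smooth muscle markers 761 and 362. Endothelial markers in HP were 421 and 470, and blood progenitor markers 1394 and 1192. The part of these differences in the members' values was not tested. Left out of the fit, HE2 replicate 2 left 3 members called higher in HP than in HE2 (Rac2, Vav1 and Coro1a), as were 0.205% of all genes tested in that fit, while 1.95% were called lower. Without HE1 replicate 1 or HE1 replicate 2, 2 members were called (Nckap1l and Lcp1), as were 0.0985% and 0.0975% of all genes.

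Markers of several blood lineages moved with the members. The summed megakaryocyte markers were 71.0 to 105 CPM in HE1 and 1187 to 1680 in HP, and erythroid markers 262 to 538 and 2404 to 4688. Most of the megakaryocyte sum was Itgb3, with means of 82.8 CPM in HE1 and 1356 in HP, while Pf4, Gp9 and Ppbp had means under 2 CPM in HP. Granulocyte markers were 3.04 to 7.19 CPM in HE1 and 113 to 252 in HP, with 4 of 8 (S100a8, S100a9, Ngp and Camp) at 0 in every library of both stages, Mpo at a mean of 179 CPM in HP, and 3 of 8 above the floor in both HP libraries. All 6 megakaryocyte and all 6 erythroid markers were above it in HP. Macrophage markers summed to 28.7 to 51.7 CPM in HE1 and 39.5 to 46.1 in HP, with 1 of 10 (C1qa) at 0 in HP and 6 of 10 above the floor in both HP libraries. Of the 7 that were tested, 4 rose from HE1 to HP (Lyz2 from 1.52 to 16.7 CPM, Csf1r from 0.833 to 7.65, and Adgre1 and Fcgr1 at lower levels) and Mrc1 fell from 26.5 to 4.36. Mast cell markers summed to 0.0661 to 0.210 CPM in HE1 and 2.51 to 5.79 in HP. Lymphoid markers summed to 1.81 to 4.16 CPM in HE1 and 1.92 to 3.02 in HP, which overlap. The part of these lineages in the members' rise was not tested.

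Each member was next set beside its relatives of the same family. Levels of the relatives varied by stage too, and Vav3 had a mean of 1.35 CPM in ES and 119 in HE2. Of 16 such paralogues 0 rose from HE1 to HP and 2 fell (Nckap1, by 1.57 ± 0.25, adjusted p = 0.00161, and Dock5, by 1.02 ± 0.22, adjusted p = 0.00804), with a median of -0.21. Both counts are near the shares of all tested genes, of which 5.35% rose and 11.2% fell. Rac1, the RAC of most cells, had a mean of 232 ± 34.6 CPM in HE1 and 201 ± 24.0 in HP (SD, n = 2), a difference of -0.21 ± 0.16. Dock1 (-0.86), Inppl1 (-0.83), Pls3 (-0.70), Wasl (-0.50) and Coro1c (-0.49) passed the test but not the 2-fold limit. Dock5 depends on its margin over 2-fold, and in 8 of the 10 fits that left out a single library only 1 of these paralogues was called lower.

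Per exon length, in RPKM (reads per kilobase of exon and scaled to library size), the leukocyte gene seldom outweighed its relatives. Its share of the summed RPKM of its family had a median over the 10 families of 2.78% at ES, 2.34% at HB, 4.64% at HE1, 15.7% at HE2 and 24.2% at HP. Was held 13.0% ± 4.63 of the family it forms with Wasl in HE1, 60.7% ± 12.2 in HE2 and 68.9% ± 8.65 in HP (SD, n = 2). Inpp5d held 18.4% ± 0.23 of its sum with Inppl1 in HE1, 58.3% ± 6.80 in HE2 and 61.9% ± 3.22 in HP. In the other 8 families the relatives kept the larger share.

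Rac2 made up 0.17% ± 0.009 of the RAC transcripts in HE1 and 8.48% ± 1.30 in HP, where its level was 4.41 RPKM beside 44.6 for Rac1 and 2.48 for Rac3. Among the VAV genes Vav1 reached 13.6 RPKM in HP beside 15.6 for Vav3 and 8.12 for Vav2. Dock2, which had the second largest fold change, remained at 1.84 RPKM beside 10.0 for Dock1. Arhgdib had the highest level of the members, with 122 RPKM in HP beside 221 for Arhgdia. The shares depend on the gene lengths used, and by reads alone Was held 46.6% of its family in HP.

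**Figure D3:**
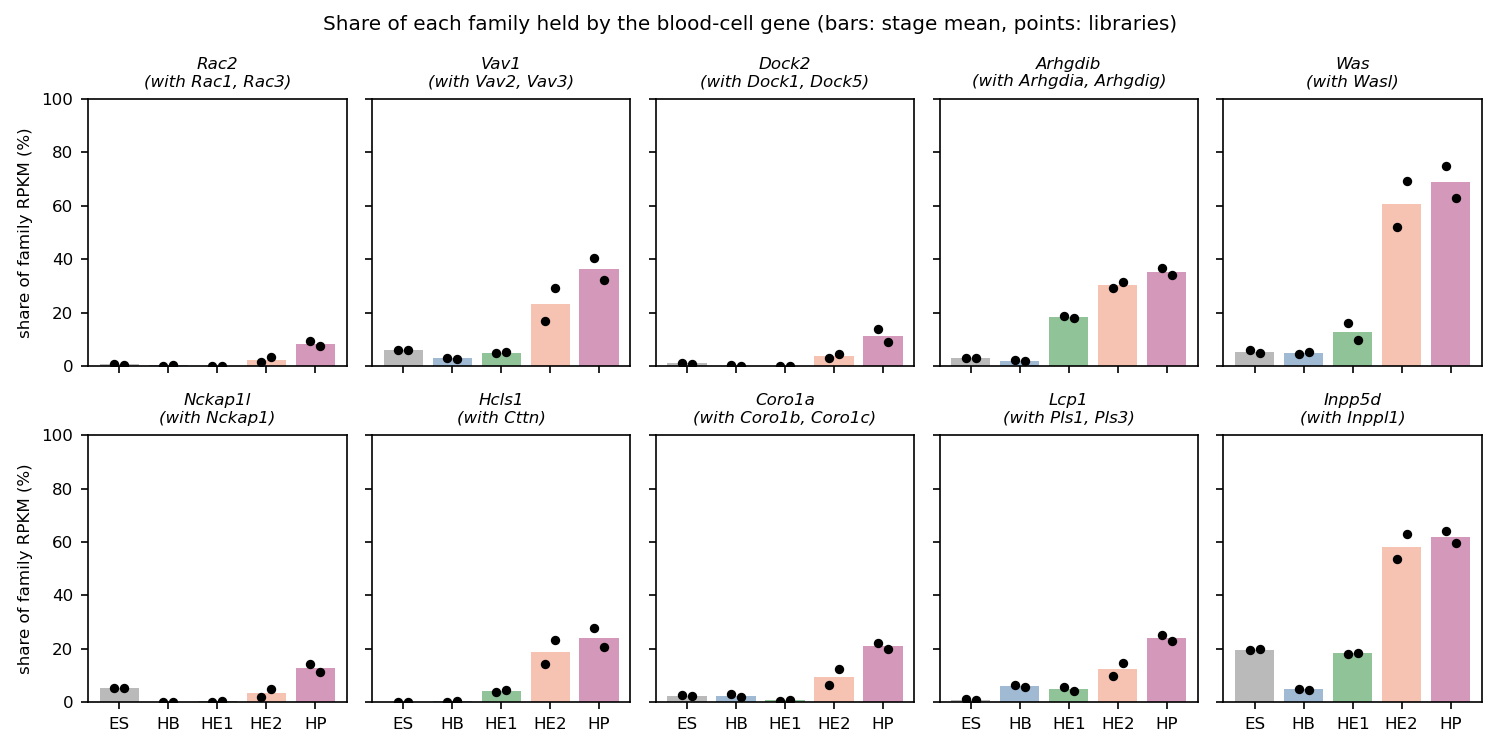
Share of the leukocyte gene in the summed RPKM of its family (bars, mean of a stage, points, the 2 libraries), with the relatives named above each panel. Bars of Was and Inpp5d pass 50% in HE2 and HP, and in the other 8 families they stay below it at every stage.

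Other genes of the pathway were taken from lists by role. Of 24 further blood-cell genes for GTPase regulators and actin-binding proteins 14 rose, against 5.35% of all tested genes, and 3 fell, near the share of 11.2% over all genes. The median was 1.43, which was the same with Arhgap15 at its lower bound. Arhgap15, a GTPase-activating protein for RAC, had 0 counts in both HE1 libraries and a mean of 1.48 CPM in HP, at least 13.1-fold higher than the mean floor of 3 counts per library. Without HP replicate 1 only 1 gene of this list was called lower. Myo1f, a myosin of leukocytes, rose from 0.978 to 39.0 CPM (5.34 ± 0.34, adjusted p = 2.57e-05), and the GTPase-activating proteins Arhgap9 and Arhgap30 rose by 4.26 ± 0.45 and 3.86 ± 0.33. The 3 that fell, named after their values were seen, were Elmo1, a partner of DOCK proteins (by 1.76 ± 0.25, from 47.7 to 14.1 CPM, adjusted p = 0.00105), Parvg (by 2.62 ± 0.58, from 4.80 to 0.789 CPM) and Fgd2 (by 2.35 ± 0.53, from 2.10 to 0.419 CPM).

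The 18 listed genes of the WAVE and ARP2/3 complexes had 0 rises and 2 falls from HE1 to HP, with a median of 0.08. Over all tested genes 5.35% rose and 11.2% fell, so both counts are near those shares. Abi3 fell by 2.86 ± 0.41, from 194 to 26.7 CPM (adjusted p = 0.00102), and Wasf3 by 1.39 ± 0.30 (adjusted p = 0.00744). Wasf2, the WAVE protein most used by blood cells, had 199 CPM in HE1 and 214 in HP. Without HP replicate 1, 1 of the 18 was called lower.

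Of 25 genes for receptors and kinases upstream of RAC and for the NADPH oxidase, which active RAC2 switches on in phagocytes, 19 rose, against 5.35% of all tested genes, and 0 fell, against 11.2%, with a median of 3.00. Btk, a kinase of antigen receptor signalling, rose by 6.16 ± 0.51 (0.225 to 16.2 CPM), Ptprc, which encodes CD45, by 5.88 ± 0.51 (0.750 to 43.0 CPM), and Itgam, the integrin CD11b, by 5.17 ± 0.35 (0.722 to 25.8 CPM). Of the oxidase genes Ncf1 rose by 4.33 ± 0.29 and Ncf4 by 3.32 ± 0.50, while the membrane subunits Cyba (-0.18 ± 0.21) and Cybb (1.99 ± 0.73, adjusted p = 0.0748) did not pass the test.

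**Figure D4:**
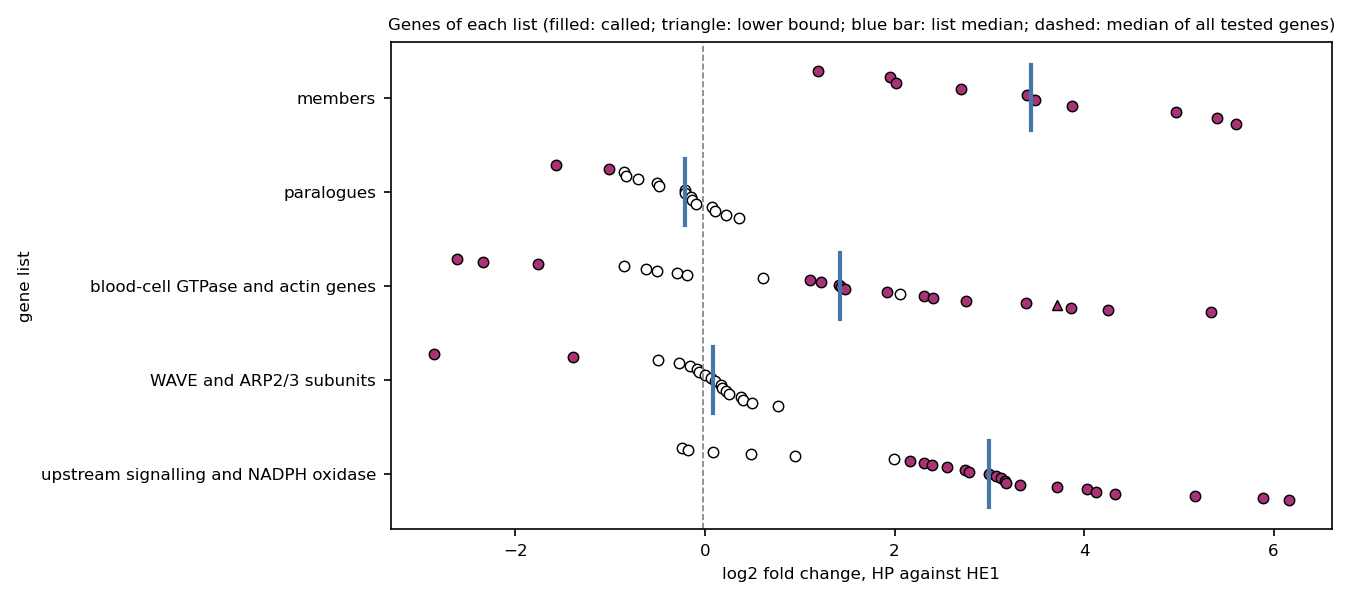
Change between HE1 and HP (log2 scale, horizontal axis) of each gene in the 5 lists (points, filled where called, with Arhgap15 as a triangle at its lower bound), the median of each list (blue bars) and of all tested genes (dashed line). All 10 members are filled and lie right of 1, while most paralogues and WAVE and ARP2/3 subunits lie near the dashed line.

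Tested genes outside the set were ranked by how closely their log2 CPM followed the mean pattern of the members over the 10 libraries. The closest of 22586 were Cd180 (Pearson r = 0.995), a Toll-like receptor relative, Nrros (0.993), Clec4d (0.992), a C-type lectin receptor, Il17ra (0.991), a cytokine receptor subunit, and Btk (0.991). These correlations are a description, since the libraries of a stage share their cells' state. Il17ra had the highest level of the 5 in HP, with 153 and 132 CPM. Among the members themselves, Was (0.97) and Vav1 (0.97) followed the mean of the other members most closely and Nckap1l least (0.52).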

How the data were processed

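RNA from nuclei was sequenced after depletion of ribosomal RNA with a strand-specific kit, in 2 libraries for each of 5 stages. The authors removed residual rRNA reads, trimmed with Trimmomatic, aligned to mm10 with HISAT2 (2.2.1) and counted with featureCounts (2.0.1 in the file headers, Ensembl release 102, strand-specific), and deposited these raw counts per gene for each library. The authors also deposited a matrix of normalized values, a score pooled to a mean per stage, which was used only to find the members. Its values were not tested.

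Counts were taken as deposited. Genes were filtered with filterByExpr, scaled with TMM, and fitted over all 10 libraries with edgeR (4.0.16, quasi-likelihood F test, R 4.3.3) with stage as the only term, which left 5 residual degrees of freedom. Benjamini-Hochberg adjustment ran over all 22596 tested genes, and a gene was called at an adjusted p under 0.05 with a change of at least 2-fold. The standard errors (SE) of changes were derived from this test, as the absolute log2 fold change divided by the square root of its F value. RPKM used the deposited exon lengths. The fit was checked on simulated counts. limma-voom (limma 3.58.1), DESeq2 (1.42.0), other scalings, filters and left-out libraries were the alternatives.

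The members and the lists were chosen with earlier results of these data known. Named genes were all members and paralogues, the 4 largest called changes from HE1 to HP in each other list, the 5 genes most like the members in pattern, and the nearest non-overlapping coding gene on each side of a member. Wasf2, Elmo1, Parvg, Fgd2 and the oxidase genes beyond Ncf1 were named after their values were seen. Ptprc stood both in the list of receptors and among the blood progenitor markers. Replicate numbers did not pair the libraries, since the correlation of deviations between stages ranged from -0.32 to 0.21. Exons of Arhgdib, Coro1a, Dock2 and Lcp1 overlap annotated genes on the opposite strand, which counting by strand keeps apart. A result for 1 listed gene is not reported here. No library pair held identical values.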

Additional observations from a re-analysis of the deposited data

How the results depend on the processing

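Of 170 values of the members' changes from HE1 to HP (10 genes under 17 alternatives) 169 kept their direction and their call, and the exception was Arhgdib without HP replicate 1 (0.97). From HE1 to HE2 160 of 170 did, from ES to HB 165, from HB to HE1 151 and from HE2 to HP 147. From HE1 to HP, 9 to 10 members were called with a library left out. Called higher from ES to HB were 1 member with limma-voom, 1 at a 4-fold limit, and 1 to 2 with a library left out. From HB to HE1, 3 members were higher with limma-voom, 2 at 4-fold, and 3 to 6 with a library left out. Lower were 0 with limma-voom, 0 with only the 4 libraries compared, 0 at 4-fold, and 0 to 1 with a library left out. From HE2 to HP, 1 member was higher with limma-voom (0.155% of all genes), 4 with DESeq2 (0.474%), 5 with no filter on low counts (0.372%), and 0 to 3 with a library left out. From HE1 to HP, paralogues called lower were 1 with library sizes that omit the 20 genes of most counts, 0 at 4-fold, and 1 to 2 with a library left out. Of the blood-cell GTPase regulator and actin genes 8 were higher at 4-fold, and 1 to 4 were lower with a library left out. Of the WAVE and ARP2/3 subunits 1 was lower at 4-fold, and 1 to 2 with a library left out. Of all genes, 11.5% were higher from ES to HB with limma-voom, near the 1 of 10 members, and 12.4% from HB to HE1. Lower from HB to HE1 were 8.8% with limma-voom and 7.98% with only the 4 libraries compared. From HE1 to HP 11% were lower with library sizes that omit the 20 genes of most counts. Shares of all genes at 4-fold were not computed. The cause of the shifts between these settings was not tested.

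Some differences that were not called changed sign with a library left out, and their ranges follow. From HB to HE1, Dock2 ran from -1.02 (without HE1 replicate 1) to 0.36 (without HB replicate 1), and Nckap1l from -0.34 (without HE1 replicate 2) to 1.43 (without HE1 replicate 1, called). Coro1a from ES to HB ran from -0.076 to 0.32 (without HB replicate 1 and 2). From HE2 to HP, Arhgdib ran from -0.020 to 0.43 (without HP replicate 1 and 2), Was from -0.35 to 0.59 (without HE2 replicate 1 and 2) and Inpp5d from -0.16 to 0.16 (without HE2 replicate 1 and 2). Scaled by total counts and not by TMM, Inpp5d was 0.053 at that step.

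With the replicate number as a block, 10 members were called higher in HP than in HE1 (4.86% of all genes) and 8 from HE1 to HE2 (2.88%). From HB to HE1 there were 5 (11%) and from ES to HB 2 (10.8%), each as without the block. Counts were under 20 in each HE1 library for Rac2 and Dock2, and in each ES and HB library for Hcls1. For Rac2 they were also under 20 in each HB library and in ES replicate 2. With 2 libraries a stage, the early levels of these genes are therefore imprecise.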

Other observations

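The nearest protein-coding genes on both sides of each member that do not overlap it were read, which leaves out Bola2 at Coro1a, Pde6h at Arhgdib and Insyn2b at Dock2, to show whether the neighbourhood moved as well. Of 20 neighbours 15 were tested, 2 rose, against 5.35% of all tested genes, and 2 fell, against 11.2%, and their median change was -0.22. Cyth4, an exchange factor for ARF GTPases that is found in blood cells and lies 24.3 kb from Rac2, rose by 3.57 on the log2 scale, from 4.43 to 52.5 CPM (edgeR adjusted p = 5.45e-05). Adgre1, the macrophage marker F4/80, lies 30.7 kb from Vav1 and rose by 2.90, from 0.221 to 1.69 CPM (adjusted p = 0.0291). Rerg beside Arhgdib fell by 2.18 (adjusted p = 0.0170) and Pde1b beside Nckap1l by 1.71 (adjusted p = 0.0111). Suv39h1 and Wdr13 around Was had changes of -0.22 and 0.24, while Was itself had 3.40, and neither passed the test.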
